A study of Mus musculus with 2 samples.

Results

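The genes described here are 41 named members of the WNT pathway, and they were found by gene symbol in the deposited count table. Of these, 39 were among the 19294 genes of the table. Wnt6 and Fzd2 had no row and were not analysed here. The members were read in 5 classes, which were ligands with the proteins that secrete them, receptors, cytoplasmic transducers with the destruction complex, TCF/LEF transcription factors, and feedback genes and targets.

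The series compares mouse intestinal organoids (mIOs), epithelial cultures grown from crypts in Matrigel, with and without dextran sulfate sodium (DSS), a sulfated polysaccharide that injures the intestinal epithelium. There was 1 control library and 1 library of mIOs given DSS, both labelled day 4 and both with the genotype Lgr5-EGFP-IRES-creERT2, in which EGFP and creERT2 are placed in the Lgr5 locus. The medium of both cultures supplied EGF, Noggin and R-spondin, so that R-spondin, which strengthens WNT signaling at the receptor, reached the cells from outside. The labels do not say whether day 4 counts days in culture or days of DSS. The DSS concentration of the sequenced culture and the age of the mice were not given in the sources used here, nor was the number of mice behind a culture.

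WNT proteins are lipid-modified ligands that need Porcn for the modification and Wls for transport to the cell surface. They bind a Frizzled receptor together with Lrp5 or Lrp6, and Dishevelled then holds back the destruction complex of Axin, Apc, Csnk1a1 and GSK3, which otherwise marks β-catenin for degradation. β-catenin that escapes enters the nucleus, joins TCF/LEF factors and switches on targets, several of which damp the pathway again. In the intestine this signaling is strongest at the crypt base, where it maintains Lgr5+ stem cells next to Paneth cells.

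The libraries held 65493032 counts for control mIOs and 59746968 counts for DSS-treated mIOs. Values are given as counts and as CPM, the counts scaled to a common library size with TMM factors. The comparison is the log2 of the ratio DSS to control on this scale, and the interval in parentheses is its exact 95% interval after Clopper and Pearson. With 1 library per condition there was no replicate check and no test, and the intervals cover counting error only, not the variation between cultures. In such bulk libraries, fewer cells of a type and less RNA per cell cannot be told apart. Although the samples are labelled as intestinal stem cells, the control library held markers of several epithelial types, with 8 stem cell markers summing to 1649 CPM and 10 enterocyte markers to 3374 CPM. In the DSS library these sums were 230.2 CPM and 27445 CPM.

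Across the pathway the feedback genes and targets stood lower in the DSS library. Most receptors and cytoplasmic components lay within 2-fold of their control levels, as did most genes of the table. Of the 39 genes, 38 had at least 10 counts in at least 1 library, and 14 of these were at a log2 ratio of -1 or less, a 2-fold decrease. Over the whole table, 17235 genes met this minimum and 20.2% of them were past that line. At a log2 ratio of 1 or more were 3 members, Wnt4, Tcf7l2 and Fzd5, where 19.3% of all genes were. Past a 4-fold difference, 7 members were lower and 1 was higher, beside 6.54% and 7.87% of all genes. The median log2 ratio was -0.59 over the 38 members and -0.06 over all genes. Scaling by total counts alone shifts every log2 ratio by -0.26, and 15 members were then lower and 2 higher, while the share of higher genes among all genes past either line went from 48.9% to 37.1%.

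The lower members were not spread evenly over the classes. They were 9 of 13 feedback genes and targets, 2 of 4 TCF/LEF factors, and 1 each of 5 ligand and secretion genes, 9 receptors and 7 transducers that met the minimum of counts. The summed level of all 39 genes was nearly equal in the libraries, at 2553 CPM in the control and 2561 CPM under DSS. That sum was dominated by the transducers, which made up 1591 and 1756 CPM. The feedback genes and targets together went from 460.4 to 110.9 CPM, a log2 ratio of -2.05.

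**Figure D1:**
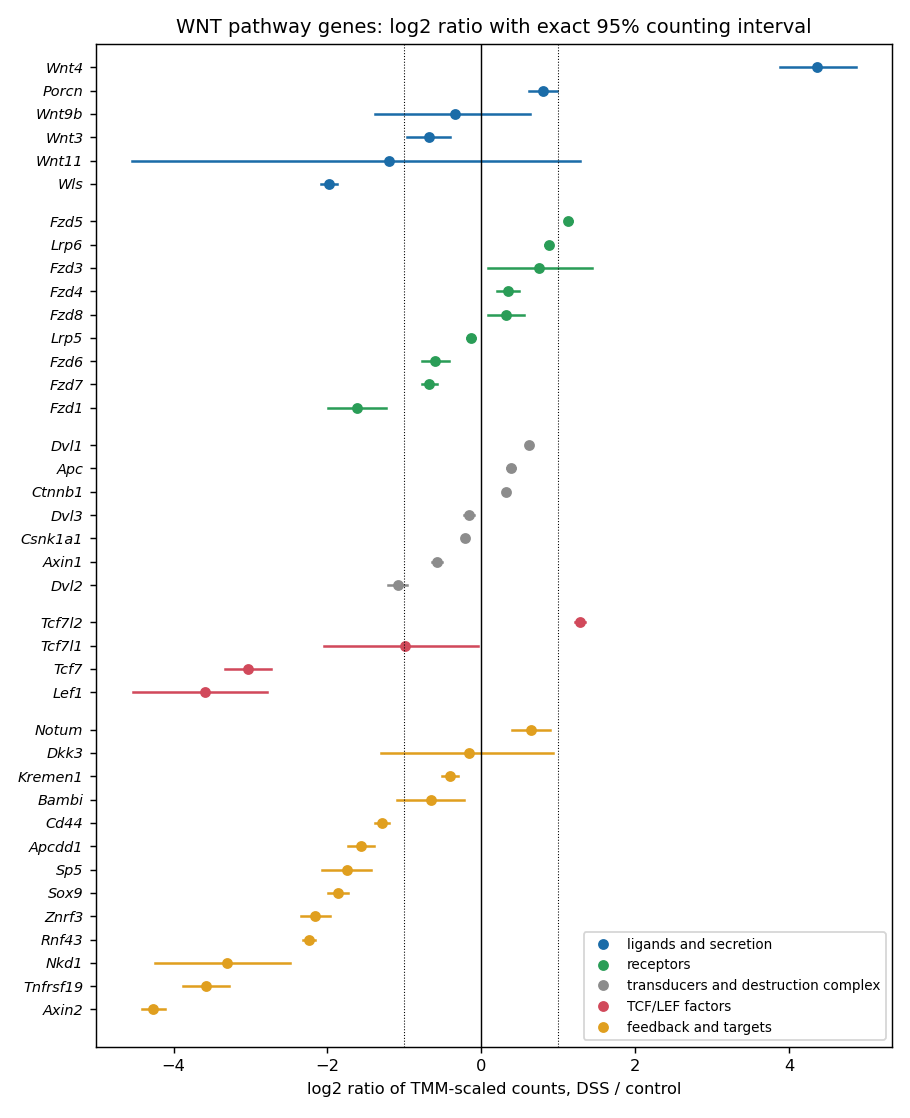
Log2 ratio of TMM-scaled counts, DSS over control, on the x axis for each of 39 WNT pathway genes, in rows by class. Points are ratios, bars are exact 95% counting intervals and dotted lines mark a log2 ratio of -1 and 1. The orange feedback genes and targets lie mostly left of the lower line, down to Axin2 at -4.26, and Wnt4 stands apart at 4.36.

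Axin2, a scaffold of the destruction complex that WNT signaling itself induces, was the member with the lowest ratio. It had 9361 counts in the control library and 373 in the DSS library, or 130.8 and 6.82 CPM. This was a 19.2-fold lower level, with a log2 ratio of -4.26 and an interval from -4.41 to -4.11. Only 0.563% of all genes were lower. Axin2 was also further down than Lgr5, the stem cell receptor for R-spondin, which was at -3.78. The difference between their log2 ratios was -0.48 (interval -0.66 to -0.30), so it exceeded counting error.

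Behind Axin2, 4 further feedback genes or targets were lower by 4-fold or more, on unlike numbers of reads. Tnfrsf19, a receptor also called Troy that marks crypt base cells, had 1619 and 104 counts and a log2 ratio of -3.57. Nkd1, an inhibitor that acts on Dishevelled, had 168 and 13 counts and a log2 ratio of -3.30, with a wide interval from -4.24 to -2.49. The intervals of Tnfrsf19 and Nkd1 overlapped, so their order was not resolved.

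Rnf43 and Znrf3 are related membrane ubiquitin ligases that remove Frizzled receptors from the cell surface, and R-spondin acts by blocking them. Rnf43 had 9567 counts in control mIOs and 1554 under DSS, at 133.7 and 28.4 CPM. Znrf3 had 1558 and 267 counts, at 21.8 and 4.88 CPM. Their log2 ratios were -2.23 and -2.16, and the interval of Znrf3, from -2.35 to -1.97, reached across the 4-fold line. The difference of -0.08 between the ratios had an interval from -0.28 to 0.13. Per kilobase of transcript, Rnf43 was at 8.99 times the level of Znrf3 in the control library and at 8.52 times in the DSS library. These ligases were thus lower by nearly the same factor, and their proportion to each other moved by less than the counting error.

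A further 4 genes of this class were between the 2-fold and 4-fold lines. Sox9, a transcription factor of crypt progenitors and Paneth cells, went from 2700 to 567 counts and a log2 ratio of -1.86. Sp5, a transcription factor that is a direct target of β-catenin, went from 435 to 99 counts, at -1.75. Apcdd1, a membrane inhibitor of WNT, went from 1402 to 362 counts, at -1.56, and Cd44, a hyaluronan receptor, from 3607 to 1126, at -1.29. Sox9 and Sp5 did not differ beyond their intervals, nor did Sp5 and Apcdd1, whereas Apcdd1 and Cd44 did.

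The other 4 genes of the class did not pass either line. Notum, a secreted enzyme that removes the lipid from WNT ligands, had 242 counts in control mIOs and 289 under DSS and stood at 0.64 (interval 0.39 to 0.90). It was the sole member of the class above 0. Exons of an annotated antisense gene, Notumos, cover 29.4% of the exonic bases of Notum, and the strand setting of the counting is not given in the sources used here. Kremen1, a co-receptor of the DKK inhibitors, was at -0.41 with 2134 and 1229 counts, and Bambi, a pseudoreceptor of the TGF-β family, at -0.65 with 140 and 68 counts. Dkk3, a divergent member of the DKK family, had 19 and 13 counts, and its interval from -1.30 to 0.93 included 0.

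Promoter sequences are shown for the 3 targets above that either led the class or held the TCF/LEF core motif, and for Wnt4, which moved the other way. The windows are the 250 bases before a RefSeq transcription start in GRCm38.p6, printed 5′ to 3′ on the strand of the gene, and capitals mark CTTTGAA or CTTTGAT, which differ in the last base, or their reverse complements TTCAAAG and ATCAAAG. The Axin2 window is chr11:108920099-108920348 on the plus strand, that of Sp5 is chr2:70474673-70474922 on the plus strand, that of Tnfrsf19 is chr14:61037988-61038237 on the minus strand, at 1 of its 2 listed starts, and that of Wnt4 is chr4:137277385-137277634 on the plus strand.
Axin2: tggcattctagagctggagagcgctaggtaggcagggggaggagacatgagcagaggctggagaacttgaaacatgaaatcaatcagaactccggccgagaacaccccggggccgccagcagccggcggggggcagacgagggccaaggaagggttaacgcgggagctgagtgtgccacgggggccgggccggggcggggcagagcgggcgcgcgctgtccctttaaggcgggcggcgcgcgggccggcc
Sp5: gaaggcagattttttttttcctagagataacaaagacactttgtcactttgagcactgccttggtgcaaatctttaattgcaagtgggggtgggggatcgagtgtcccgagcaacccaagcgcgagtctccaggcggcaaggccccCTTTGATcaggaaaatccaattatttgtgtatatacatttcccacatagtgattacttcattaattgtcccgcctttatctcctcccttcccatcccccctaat
Tnfrsf19: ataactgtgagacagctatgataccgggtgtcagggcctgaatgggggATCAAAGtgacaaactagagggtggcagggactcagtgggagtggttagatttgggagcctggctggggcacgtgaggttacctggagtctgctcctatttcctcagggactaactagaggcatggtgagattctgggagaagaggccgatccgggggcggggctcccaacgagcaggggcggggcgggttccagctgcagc
Wnt4: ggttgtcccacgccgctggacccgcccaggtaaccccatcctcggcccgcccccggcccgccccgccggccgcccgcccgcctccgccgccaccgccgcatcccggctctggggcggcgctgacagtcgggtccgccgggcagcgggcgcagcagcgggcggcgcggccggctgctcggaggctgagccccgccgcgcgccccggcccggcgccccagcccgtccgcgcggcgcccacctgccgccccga

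In Sp5 the motif began 104 bases before the start and in Tnfrsf19 202 bases before it, while the other window of Tnfrsf19 and the Axin2 and Wnt4 windows held no match. RefSeq windows were at hand for 23 of the 39 members, and 3 of their 32 windows, or 9.38%, held a match, the last belonging to Wnt11. Of 32851 windows of all genes 7.48% held one, so matches in these short windows were about as frequent among the members as elsewhere. A match is a run of letters and not a measured binding site.

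Among the TCF/LEF factors, which carry β-catenin to DNA through a shared HMG box, 3 genes were lower in the DSS library and Tcf7l2 was higher. Tcf7l2, the TCF factor best known for stem cell maintenance in the intestine, had 3450 counts in control mIOs and 6411 under DSS, at 48.2 and 117.3 CPM. Its log2 ratio was 1.28 (interval 1.22 to 1.34). Tcf7 went from 1112 to 104 counts and from 15.5 to 1.90 CPM, a log2 ratio of -3.03 (interval -3.33 to -2.74). Lef1, itself a WNT target in many tissues, went from 205 to 13 counts, at -3.59 (interval -4.52 to -2.78). The difference between Lef1 and Tcf7 was -0.56, and its interval from -1.54 to 0.31 included 0.

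The make-up of the family therefore differed between the libraries. Tcf7l2 took 71.9% of the TCF/LEF reads in the control library, with an exact Clopper-Pearson 95% interval from 70.6% to 73.1%, and 98.0% in the DSS library, from 97.6% to 98.3%. Per kilobase of transcript its share was 64.6% and 97.2%. The ratio of Tcf7l2 to Tcf7 per kilobase was 2.11 in control mIOs and 42.0 under DSS. Tcf7l1, mostly a repressor, was scarce in both, with 34 and 13 counts. At a log2 ratio of -0.999 it stayed just short of the line (interval -2.04 to -0.04). Although 3 of its 4 genes were lower, the summed level of the family was higher under DSS, at 119.6 CPM against 67.1 CPM, since most of its reads were those of Tcf7l2.

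**Figure D2:**
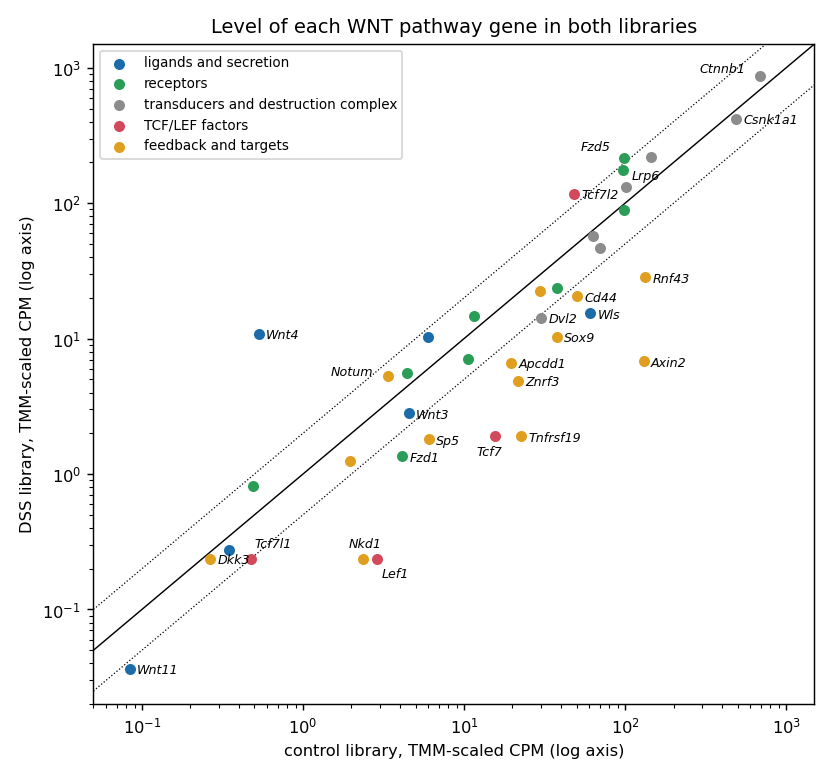
Level of each of 39 WNT pathway genes as TMM-scaled CPM, control library on the x axis and DSS library on the y axis, both log axes, colored by class. The solid line marks equal levels and the dotted lines a 2-fold difference. Ctnnb1 and Csnk1a1 sit at the top near the solid line, Axin2 lies far below it at 130.8 and 6.82 CPM, and Wnt4 lies far above it at 0.531 and 10.9 CPM.

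Ligand genes were read at low depth, and the leading ligand was not the same in the libraries. Wnt3, the ligand that Paneth cells supply to stem cells, had 324 counts in control mIOs and 154 under DSS, at 4.53 and 2.82 CPM. Its log2 ratio was -0.68 (interval -0.97 to -0.40). Wnt4, a ligand that often signals without β-catenin, had 38 counts in control mIOs and 595 under DSS, at 0.531 and 10.9 CPM. This was a 20.5-fold higher level, with a log2 ratio of 4.36 and an interval from 3.88 to 4.87, and 99.3% of all genes had a lower ratio.

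Per kilobase, Wnt4 was at 0.0860 times the level of Wnt3 in the control library (interval 0.0598 to 0.121), and at 2.83 times in the DSS library, from 2.37 to 3.41. Of the reads of the 4 listed ligands, Wnt3 took 82.4% in control mIOs (interval 78.3% to 86.1%) and Wnt4 77.7% under DSS (interval 74.6% to 80.6%), or 86.6% and 72.4% per kilobase. Wnt9b, with 25 and 15 counts, had an interval from -1.38 to 0.63 that included 0. Wnt11, with 6 and 2 counts, had too few reads for a direction, since its interval ran from -4.54 to 1.29. A set of 11 of the 14 other mouse WNT ligands had no row, and the remaining Wnt5a, Wnt5b and Wnt9a together reached 0.685 CPM in the control and 1.39 CPM under DSS.

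The genes of the proteins that ready ligands for secretion differed in direction. Wls, the carrier that brings WNT to the cell surface, went from 4340 to 842 counts and from 60.6 to 15.4 CPM, a log2 ratio of -1.98 (interval -2.09 to -1.87). Porcn, the enzyme that adds the lipid, had 425 and 565 counts, at 0.80 (interval 0.62 to 0.98). Per kilobase, Wls was at 5.40 times the level of Porcn in the control library and at 0.788 times in the DSS library.

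Beside these values, all 10 Paneth cell markers were below 0, and 7 of them at -1 or less, where 20.2% of all genes were. Their summed level was 1001 CPM in the control and 404.1 CPM under DSS. Lyz1, the defining Paneth lysozyme, was at -1.06. The log2 ratio of Wnt3 lay 0.38 above that of Lyz1 (interval 0.09 to 0.66). Mesenchymal cells are another WNT source of the intestine, and 7 of 11 of their markers, Col1a2, Col3a1 and Dcn included, had no row, while the other 4 summed to 1.44 CPM in the control and 2.10 CPM under DSS. A missing row does not show absence from both libraries. All 10 enterocyte and all 8 goblet cell markers were at 1 or more, where 19.3% of all genes were. The goblet cell markers summed to 866.4 CPM in control mIOs and 11711 CPM under DSS. The part of these cell types in the ligand values was not tested.

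Of the 9 receptor genes in the table, 7 lay between the 2-fold lines, as did most genes of the table, 1 was above and 1 below. Fzd5, the main Frizzled of the intestinal epithelium, had 7033 counts in control mIOs and 11744 under DSS, at 98.3 and 214.8 CPM. Its log2 ratio was 1.13 (interval 1.09 to 1.17), but scaled by total counts alone it was 0.87. Fzd7, the Frizzled linked to Lgr5+ stem cells, went from 2699 to 1288 counts, at -0.68 (interval -0.78 to -0.58). Fzd1 went from 296 to 74 counts, at -1.61 (interval -1.999 to -1.24), and was the one receptor past the lower line.

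Fzd5 thus took a larger share of the Frizzled reads under DSS. It had 58.7% of the reads of 7 Frizzled genes in the control library (interval 57.9% to 59.6%), and 80.2% in the DSS library, from 79.5% to 80.8%. Per kilobase this was 49.9% and 75.0%, and the share of Fzd7 was 29.2% and 12.6%. Fzd6 was at -0.60, and Fzd4 and Fzd8 were at 0.35 and 0.32 with overlapping intervals. Fzd3 was at 0.75 on 35 and 45 counts, the smallest counts of the receptors.

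The LRP co-receptors, which Dishevelled and Axin engage once WNT has bound, differed in proportion between the libraries. Lrp5 had 7025 counts in control mIOs and 4905 under DSS, at a log2 ratio of -0.13. Lrp6 had 6919 and 9697 counts, at 0.88. The difference between them was 1.01 (interval 0.94 to 1.07). Per kilobase, Lrp6 was at 0.543 times the level of Lrp5 in the control and at 1.09 times under DSS.

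**Figure D3:**
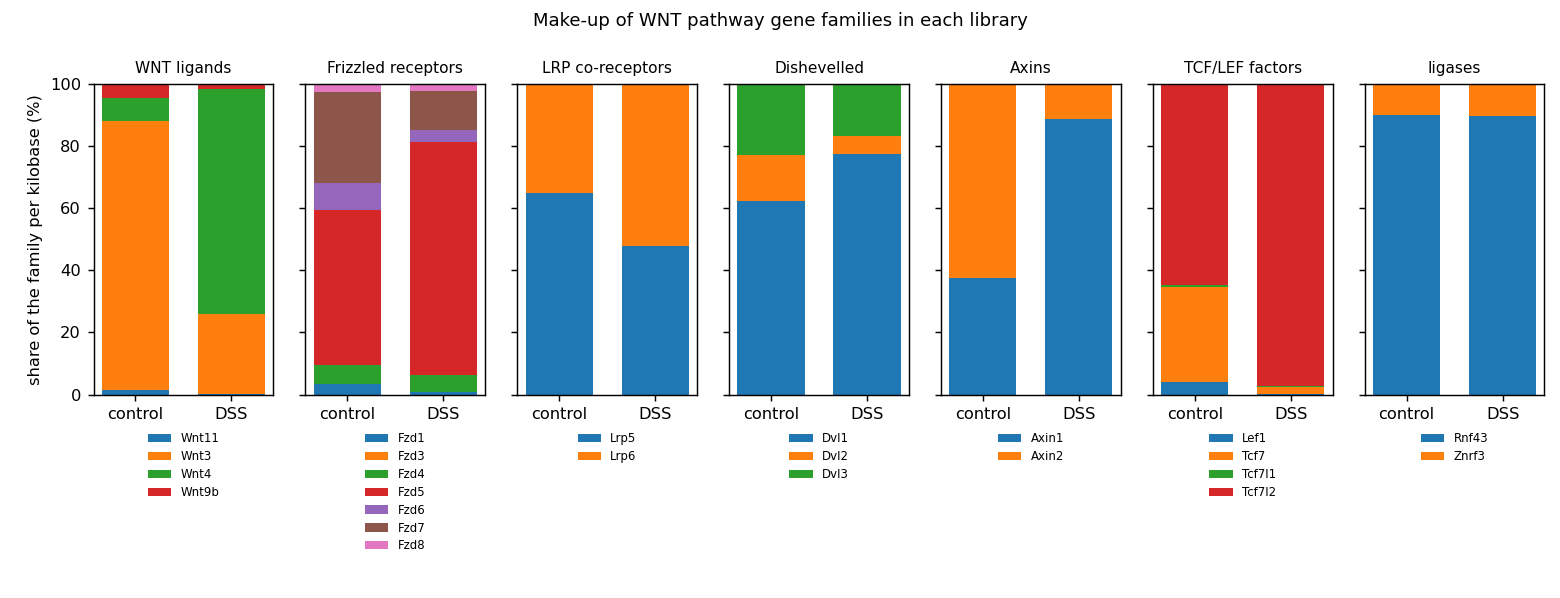
Share of each gene in the summed per-kilobase level of its family, in percent on the y axis, for the control and the DSS library, in 7 panels. Wnt4 replaced Wnt3 as the largest ligand share, Tcf7l2 went from 64.6% to 97.2% of the TCF/LEF factors, Axin2 from 62.5% to 11.5% of the Axins, while Rnf43 had 90.0% and 89.5% of the ligases.

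The cytoplasmic transducers had the narrowest range of log2 ratios of the 5 classes, from -1.09 to 0.62, and included Ctnnb1 and Csnk1a1, the members with the highest levels per kilobase in either library. Ctnnb1, which encodes β-catenin, had 49634 counts in control mIOs and 47234 under DSS, at 693.5 and 863.9 CPM, and a log2 ratio of 0.32. Apc, the tumor suppressor scaffold of the destruction complex, was at 0.38 with 7238 and 7212 counts. Csnk1a1, the kinase that primes β-catenin for degradation, was at -0.22 with 35028 and 23032 counts, and Axin1, the Axin placed in this class, at -0.58 with 4986 and 2552 counts. All 4 lay within the 2-fold lines, although their intervals did not include 0.

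Axin2 was placed with the feedback genes, and it differed from Axin1 beyond counting error. The difference of the log2 ratio of Axin2 from that of Axin1 was -3.68 (interval -3.85 to -3.52). Per kilobase, Axin2 was at 1.66 times the level of Axin1 in the control library and at 0.130 times in the DSS library.

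Of the Dishevelled genes, which pass the signal from receptor to destruction complex, Dvl1 was higher and Dvl2 lower. Dvl1 had 10306 and 12067 counts, at 0.62, and Dvl3 had 4531 and 3107 counts, at -0.16. Dvl2 went from 2167 to 778 counts, at -1.09, and its interval from -1.21 to -0.97 reached across the line. Exons of Acadvl, on the opposite strand, overlap 18.3% of the exonic bases of Dvl2, and Acadvl had 12091 and 8843 counts, so the value of Dvl2 is uncertain if the counting ignored strand. In all, 9 of the 39 members share over 1% of their exonic bases with another annotated gene, among them Fzd5 with 17.8%, Ctnnb1 with 14.6% and Lef1 with 13.7%. Ulk4, which overlaps Ctnnb1, had only 99 and 30 counts, and the genes overlapping Fzd5 and Lef1 had no row. The share of Dvl1 among Dishevelled reads was 60.6% in control mIOs (interval 59.9% to 61.3%) and 75.6% under DSS (interval 75.0% to 76.3%), or 62.2% and 77.5% per kilobase.

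**Figure D4:**
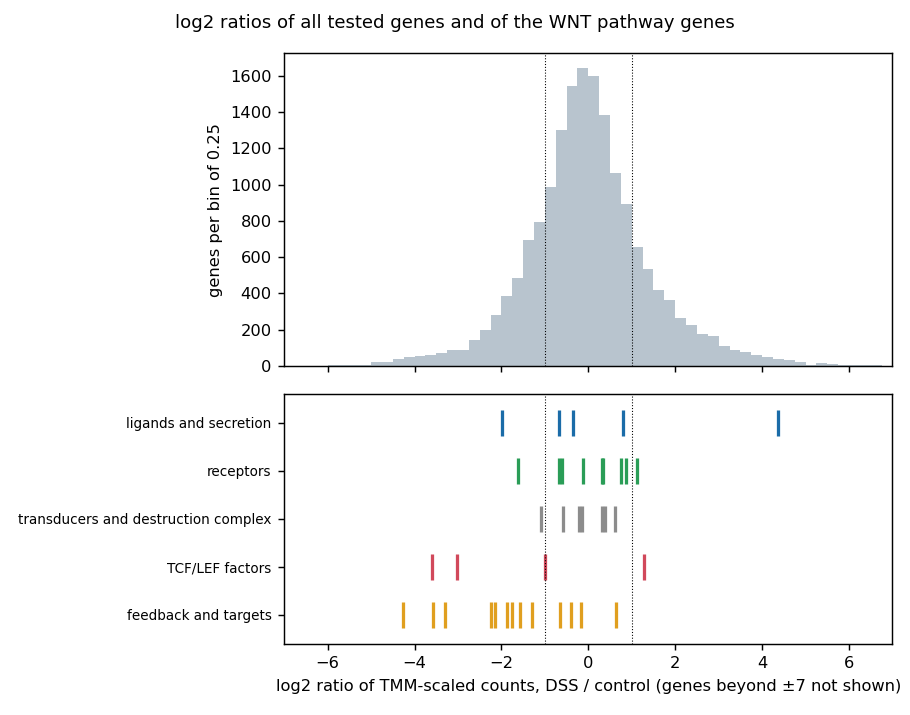
Top, the number of genes per bin of log2 ratio among the 17235 genes that met the minimum of 10 counts in either library. Bottom, the 38 WNT pathway genes that passed this minimum on the same axis, a tick each, by class, with dotted lines at -1 and 1. Transducers and receptors sit under the bulk of all genes and the feedback genes and targets reach into its lower tail.

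Other genes of the pathway were read from hand-written lists. Beside their counts, 20.2% of all genes were at -1 or less and 19.3% at 1 or more, with a median of -0.06. Of 15 other intestinal WNT targets, 14 were in the table, 12 were at -1 or less, none at 1 or more, and the median was -2.08. The named genes of this list were Ascl2, the master transcription factor of the stem cell, at -4.31, Cdca7 at -4.13 and Lgr5, from 18849 to 1048 counts. Of these 15 genes, 5 are also stem cell markers and 1 is a Paneth cell marker. All 8 stem cell markers were at -1 or less with a median of -3.51, and 9 of 10 markers of cycling cells were at -1 or less with a median of -4.14 and a summed level of 1594 and 260.9 CPM. Of the 39 members, only Axin2 had an interval wholly below that of Lgr5, 4 members overlapped it and 34 lay above it. The overlapping members were Tnfrsf19, Lef1, Nkd1 and Wnt11, the last on 6 and 2 counts that give no direction. How far the lower WNT targets and the fewer stem and cycling cell reads share a source was not tested.

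Secreted antagonists, which bind WNT ligands or LRP outside the cell, mostly had log2 ratios above 0, but at very low levels. Of 14 listed genes, 6 were in the table, and 5 of these were at 1 or more, where 19.3% of all genes were. Frzb, a secreted Frizzled-related protein, had 5 and 75 counts, at a log2 ratio of 4.30 (interval 3.01 to 5.96). Kremen2, a membrane co-receptor of the DKK inhibitors kept in this list, had 15 and 53 counts, at 2.21 (interval 1.36 to 3.14). Of the others at 1 or more, Sfrp5, Wif1 and Draxin had intervals that began at 0.52, 0.51 and 0.41, below that line. Frzb and Sfrp5 met the minimum of 10 counts through the DSS library alone, so they could only be counted as higher. The 6 genes summed to 1.47 CPM in the control and 4.39 CPM under DSS.

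Of 12 genes of the R-spondin axis and other receptors, 6 were in the table and 2 were at -1 or less, beside 20.2% of all genes. Ptk7, a co-receptor of planar polarity, went from 500 to 52 counts, at -2.88, and Fzd9 from 63 to 11 counts, at -2.13. Ror2, a receptor of WNT signaling without β-catenin, was at -0.999 with 1892 and 723 counts, just short of the line. Among 16 listed cytoplasmic regulators such as the GSK3 kinases and the tankyrases, 14 were in the table. Within the 2-fold lines lay 13 of these, as did most genes of the table, and the median was 0.01. Csnk1e, a kinase that acts on Dishevelled, was the exception at -1.13, while Cby1 was at -0.69 and Ctnnbip1, an inhibitor of β-catenin, at 0.64.

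**Figure D5:**
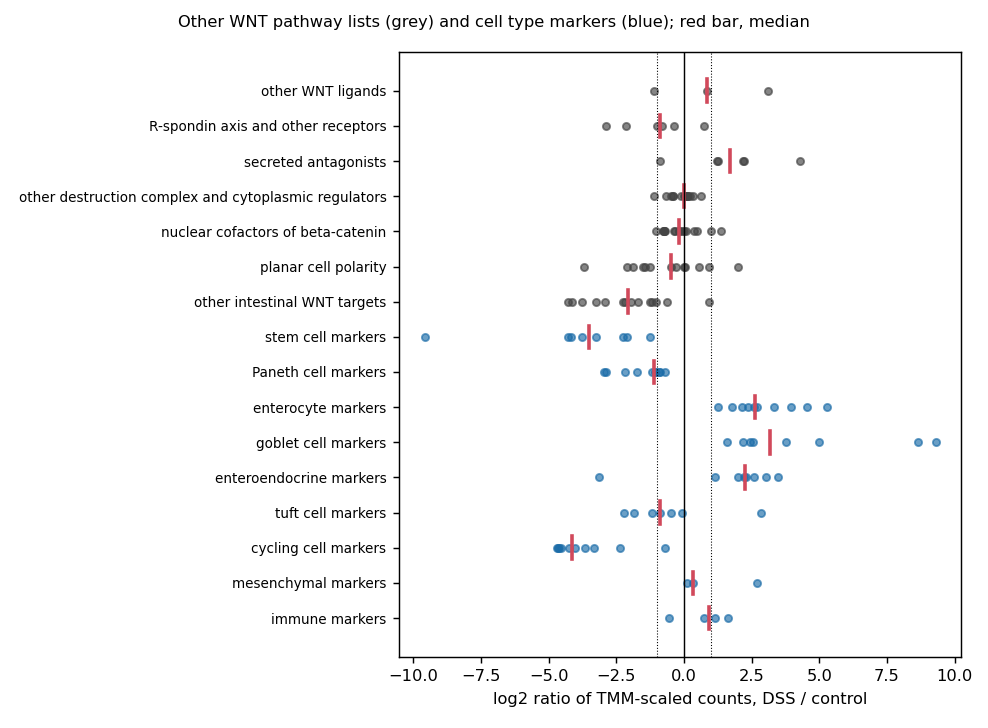
Log2 ratio of TMM-scaled counts on the x axis for genes that met the minimum of 10 counts in either library, in 7 other WNT pathway lists (grey) and 9 lists of cell type markers (blue), with the median of each list as a red bar. Other intestinal WNT targets lie on the side of the stem and cycling cell markers, and cytoplasmic regulators are centered near 0.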

How the data were processed

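mRNA was sequenced from 1 control and 1 DSS-treated mIO culture with TruSeq Stranded mRNA libraries. Raw read counts were deposited by the authors for each gene under its NCBI gene identifier. The submitters' processing notes name HISAT2 and StringTie. The genome build, the counting program and its strand setting are not given in the sources used here. The files of the single samples carry FPKM in their names but hold the same counts and were not used. The smallest listed count was 1 in either library, so a gene without reads in 1 of the libraries may have no row.

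TMM factors, 1.09 for the control and 0.915 for the DSS library, were computed on the whole table in edgeR 4.0.16 under R 4.3.3, and ratios, intervals and plots in Python 3.11.15 with numpy 2.4.6, scipy 1.17.1, pandas 2.3.3 and matplotlib 3.10.9. No count of 0 occurred. Differences between the log2 ratios of 2 genes carry the exact conditional interval of the odds ratio. Lengths are those of the longest GENCODE vM21 transcript matching a RefSeq accession of the row. The computation was tested on simulated counts. The members and lists were chosen with earlier results of these data known. The members are all reported, and in each other pathway list the 3 genes furthest from a log2 ratio of 0 are named, provided that either library had at least 50 counts. Family shares, ratios between members and overlaps of exons were chosen after the data were seen, as were the genes named outside this rule. As alternatives, size factors of DESeq2 1.42.0, upper quartile factors and total counts were used for scaling, values were centered on the median, a prior count of 2 was added, the deeper library was thinned, and the count minimum was changed.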

Additional observations from a re-analysis of the deposited data

How the results depend on the processing

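No paired analysis was possible because each condition has 1 library and no test was made, and no library could be left out. Over 9 alternatives, the counts of lower and higher members, the counts per class and the median were recomputed, and 70 of 72 values were within 1.5 times the main count or, for the median, within the median counting interval. The exceptions concern small counts. Without a filter on low counts, 2 ligand and secretion genes were at -1 or less in place of 1, since Wnt11 entered, and with upper quartile factors 0 transducers were, since Dvl2 was then just inside the line. The median over members ran from -0.84 with total counts to -0.50 with upper quartile factors. No member changed sign under 6 alternatives of scaling, prior count and depth. Scaling and centering, however, add the same amount to every log2 ratio, and the largest such shift was -0.26, with total counts. The members nearest 0 on either side were Lrp5 at -0.13 and Ctnnb1 at 0.32. Kept signs under these shifts were therefore fixed by arithmetic. Of 234 recomputed values, 5 crossed a line, which were those of Fzd5 at 0.87 with total counts, Dvl2, Wnt11 at -0.76 with a prior count of 2, and Tcf7l1 at -1.25 with total counts and -1.13 with thinning. Depth limits Wnt9b, Wnt11, Fzd3, Tcf7l1 and Dkk3, each under 50 counts in both libraries.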

Other observations

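Planar cell polarity genes, which orient cells within the epithelial sheet through Frizzled but without β-catenin, differed among themselves. Of 15 listed genes, 13 were in the table, 6 were at a log2 ratio of -1 or less and 1 was at 1 or more. Of all genes 20.2% and 19.3% were past these lines. The median was -0.49 in the list and -0.06 over all genes. Prickle1, a cytoplasmic core component, went from 119 to 7 counts, at -3.70 (interval -5.04 to -2.61). Vangl1, a membrane core component, went from 1279 to 229 counts, at -2.09. Celsr3, a cadherin of the same core group, was the one at 1 or more, with 116 and 349 counts and a log2 ratio of 1.98.

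Nuclear cofactors of β-catenin lay mostly within 2-fold of their control levels, as did most genes of the table. Of 17 genes in the table, 14 were within the 2-fold lines and the median was -0.20. Tle2 and Tle6, corepressors of the Groucho family, were at 1.36 and 1.01, and their relative Tle1 was at -1.04. Tle1 went from 60.5 CPM in control mIOs to 29.4 CPM under DSS, and Tle2 from 2.95 to 7.55 CPM.

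Among other cell types, the 7 tuft cell markers summed to 9.98 CPM in the control and 5.67 CPM under DSS. Of these markers 6 were below 0, Ptgs1 was above it with 6 and 33 counts, and 3 intervals included 0. The 8 enteroendocrine markers summed to 845.1 and 4284 CPM, of which Chgb made up 608.4 and 3003 CPM. In that list 7 were at 1 or more, where 19.3% of all genes were, while Neurog3 went from 692 to 60 counts, at -3.14. Of 8 immune markers 3 were not in the table, Ptprc and Cd3e included, which does not show absence from both libraries. The other 5 summed to 14.2 and 24.7 CPM.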
